A study of Mus musculus with 8 samples.

Results

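Genes of the eIF2 pathway, the step of translation control that lies upstream of the transcription factor ATF4, were examined in mouse embryonic fibroblasts that lack Cebpg. The members were 10 genes of the pathway: the eIF2 kinases Eif2ak1, Eif2ak2, Eif2ak3 and Eif2ak4, the eIF2 subunits Eif2s1 and Eif2s2, the eIF2B subunits Eif2b1, Eif2b2 and Eif2b5, and the phosphatase subunit Ppp1r15b. They were chosen with earlier results of these data known. Every probe set that the array's annotation assigns to a single one of them was used, which gave 27 of 45037 probe sets for 9 of 18193 genes. Eif2s1 was not analysed here, since no probe set in the annotation used here names it alone.

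The groups were 4 Cebpg-/- samples, which carry no intact copy of the gene for the basic leucine zipper factor C/EBPγ, and 4 WT samples. All were fibroblasts of the C57BL/6 strain from E13.5 embryos, grown in DMEM with 10% FBS, plated at passage 3 and taken 48 hours after that, and the labels name no stress treatment. The labels call the samples biological replicates without saying whether each comes from a separate embryo, so the p-values below cover the spread among these cultures, which may be technical. One array was hybridised per sample, and the deposited RMA values, in log2 units, were used throughout. Of 3 probe sets for Cebpg, 1 fell: it read 5.42, 5.69, 5.44 and 5.57 in Cebpg-/- replicates 1 to 4, against 6.29, 6.23, 6.32 and 6.41 in WT replicates 1 to 4 (limma, adjusted p = 0.000593 over all probe sets). The other two averaged 6.60 and 3.05 in Cebpg-/-, against 6.78 and 2.80 in WT, and did not pass, and which part of the gene is deleted is not given in the sources used here.

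As background, eIF2 is a complex of alpha, beta and gamma subunits that carries the initiator tRNA to the ribosome in its GTP-bound form, and eIF2B reloads it with GTP. Under stress each of the kinases phosphorylates the alpha subunit: HRI (Eif2ak1) responds to lack of haem and mitochondrial stress, PKR (Eif2ak2) to double-stranded RNA, PERK (Eif2ak3) to unfolded proteins in the endoplasmic reticulum (ER) and GCN2 (Eif2ak4) to uncharged tRNA. Phosphorylated eIF2 blocks eIF2B, so most translation slows while the mRNA of ATF4 is translated more. An mRNA array measures the level of these transcripts, not the phosphorylation through which the kinases act.

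In each gene's brightest probe set, the largest change of any member was 0.41 on the log2 scale. None of the 9 exceeded 0.5, a size that 5.31% of all genes exceeded, and with 9 genes that is near the same share. Other probe sets of Eif2ak2 changed by 0.51 and 0.55. The median size of the change, regardless of sign, was 0.13 over the members and 0.11 over all genes. By the brightest probe set of each gene, Eif2ak2 and Eif2b1 rose, Eif2ak3 fell and 6 members did not pass (limma with Benjamini-Hochberg adjustment over all genes, threshold 0.05). Of all genes 12.6% passed the same test, 8.62% as higher and 3.99% as lower in Cebpg-/-. Higher genes made up 68.4% of the genes that passed, 56.7% after quantile normalization and 78.9% after each array's median was subtracted. In 4 of the 9 members all values of one genotype lay beyond all of the other, namely Eif2b1 on the high side in Cebpg-/- and Eif2ak3, Eif2ak4 and Eif2s2 on the low side, and this was so for 19.5% of all genes, 12.8% on the high side and 6.74% on the low side. An unadjusted p under 0.05 was seen for 4 of the 9 members and for 28.4% of all genes. Among the 27 member probe sets 2 passed over all probe sets, Eif2b1 as higher and Eif2ak3 as lower, where 7.6% of all probe sets passed, 4.82% as higher and 2.78% as lower. The groups lay apart in 5 of the 27, against 15% of all probe sets. Every member's brightest probe set lay above the median of all values, 2.73, on all 8 arrays.

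**Figure D1:**
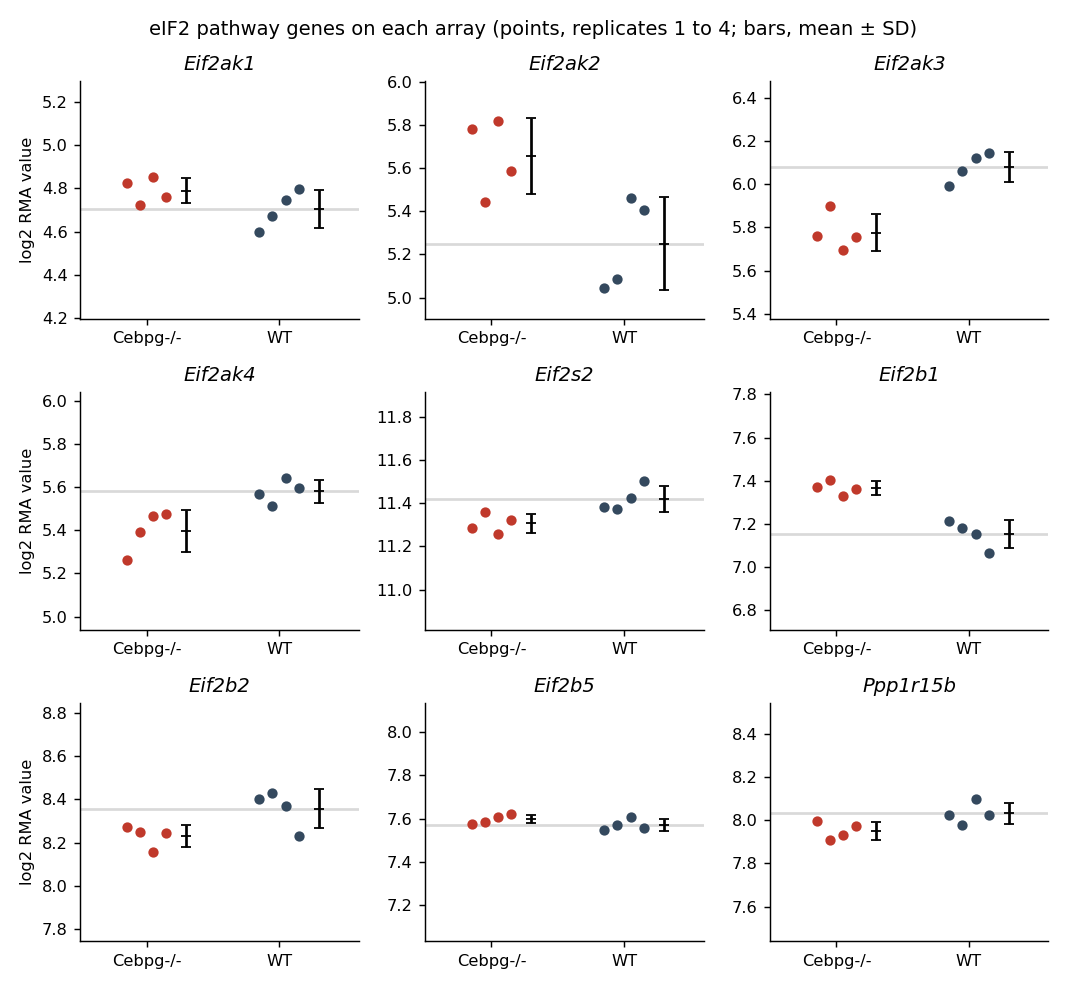
Log2 RMA values of the brightest probe set of each of the 9 measured members, with points for replicates 1 to 4 from left to right within each genotype, black bars for the mean ± SD, and a grey line at the WT mean. All panels span the same range of log2 units. The groups lie apart for Eif2ak3, Eif2ak4, Eif2s2 and Eif2b1 and overlap for the other 5 genes.

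Eif2ak3, which encodes the ER stress kinase PERK, was the kinase that fell. It read 5.76, 5.90, 5.70 and 5.75 in Cebpg-/- replicates 1 to 4, against 5.99, 6.06, 6.12 and 6.14 in WT replicates 1 to 4. The highest Cebpg-/- value lay below the lowest WT value. The level in Cebpg-/- was 81.1% of that in WT, a log2 difference of -0.30 (95% interval -0.45 to -0.16; limma, adjusted p = 0.0148 over genes and 0.0211 over probe sets). The other two probe sets lay below the median of all values on every array and read 1.90 and 1.29 in Cebpg-/-, against 1.96 and 1.21 in WT, with no change that passed, so the call rests on a single probe set. It passed without each array in turn (adjusted p from 0.00875 to 0.0483). It was lost with the leukocyte marker mean described with Eif2ak2 as a covariate (-0.28, adjusted p = 0.144), without both Cebpg-/- replicate 1 and WT replicate 1 (-0.33, 0.0720) and when all 3 probe sets were averaged (-0.09, 0.255).

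The stretch of DNA before the Eif2ak3 start site is shown because it is where binding motifs for C/EBP factors were sought, and because it holds many copies of CCAAT, the box that the NF-Y factor is known to bind and that gave the C/EBP family its name. The sequence is the 250 bases before the start in RefSeq's promoter table (GRCm38.p6, chr6:70844265-70844514, plus strand), 5′ to 3′, with CCAAT or its complement ATTGG in capitals.
Eif2ak3: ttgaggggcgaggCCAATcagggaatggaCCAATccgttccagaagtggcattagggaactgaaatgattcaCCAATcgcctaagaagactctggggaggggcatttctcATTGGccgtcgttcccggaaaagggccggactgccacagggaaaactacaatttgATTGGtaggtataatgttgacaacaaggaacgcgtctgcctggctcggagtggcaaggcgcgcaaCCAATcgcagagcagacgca
It holds 6 matches on both strands together, and 0.0578% of 32851 promoters of this table hold as many or more (33.8% hold at least 1). This motif was chosen after the sequence was seen. A match is a description of letters and says nothing on what binds there.

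The element that C/EBPγ is known to occupy together with ATF4, the C/EBP-ATF composite site TGATGNAA, was searched on both strands of the same 250-base window, as were the C/EBP half-site pair TTGCNNAA and an interferon response motif made of 2 GAAA repeats with any 2 letters between them. RefSeq promoters were found for 9 of the 10 members, Eif2s1 included and Ppp1r15b not. The composite motif occurred before none of the 9, before 7 of 21 genes of a list of ATF4 targets, and in 3.45% of all promoters. Those 7 were Chac1, Asns, Atf3, Vldlr, Slc7a11, Pck2 and Nupr1. Atf3 rose in Cebpg-/- (0.80, limma adjusted p = 0.0255), and the others fell. The C/EBP motif occurred before none of the members, before 2 of the 21 and in 9.56% of all promoters. The following 3 of the 7 windows, from ATF4 targets, show what the motif looks like (GRCm38.p6; composite match or its complement in capitals; chr2:119351038-119351067, plus strand; chr6:7693214-7693243, minus strand; chr14:55540152-55540181, plus strand).
Chac1: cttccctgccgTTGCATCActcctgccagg
Asns: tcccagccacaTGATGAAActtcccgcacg
Pck2: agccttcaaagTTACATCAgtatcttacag
Absence of a match says only that these letters are not in this window.

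Genes of the ER stress response, to which PERK belongs, were counted beside it. Of 15 ER sensors and chaperones 5 fell and none rose (limma, over genes; 10 of 15 at an unadjusted p under 0.05), with a median change of -0.19 against 0.00 over all genes. Dnajb9, among those 10, was higher in Cebpg-/- (0.17) without passing. Over all genes 3.99% fell, 8.62% rose and 28.4% had an unadjusted p under 0.05. Xbp1, the transcription factor made by IRE1 splicing, averaged 9.66 ± 0.17 in Cebpg-/- and 10.19 ± 0.09 in WT (SD, n = 4 each; adjusted p = 0.00505). Pdia6, a protein disulfide isomerase of the ER, averaged 9.80 ± 0.14 in Cebpg-/- and 10.21 ± 0.07 in WT (adjusted p = 0.00872). Manf, a secreted ER stress protein, fell by 0.29 (adjusted p = 0.0224), and this call was lost without Cebpg-/- replicate 1 (adjusted p = 0.0680), Cebpg-/- replicate 3 (0.0663) or WT replicate 1 (0.0615). All 3 calls were lost with the leukocyte marker covariate (adjusted p = 0.0584, 0.127 and 0.251 for Xbp1, Pdia6 and Manf) and without both Cebpg-/- replicate 1 and WT replicate 1 (0.0549, 0.0737 and 0.151).

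Eif2ak2, which encodes the double-stranded RNA kinase PKR, was the kinase that rose. It read 5.78, 5.44, 5.82 and 5.58 in Cebpg-/- replicates 1 to 4, against 5.04, 5.09, 5.46 and 5.40 in WT replicates 1 to 4. The groups overlapped: Cebpg-/- replicate 2 lay below WT replicate 3. The log2 difference was 0.41 (95% interval 0.15 to 0.67), which puts Cebpg-/- at 133% of WT, with adjusted p = 0.0486 over genes. Its other probe sets differed by 0.51 and 0.55, and none of the 3 passed over all probe sets (limma, adjusted p = 0.0653, 0.383 and 0.191). WT replicate 4 stood at 6.20 in the second of them, above every Cebpg-/- value, while the other 3 WT arrays read 4.43 to 4.85. The gene call was lost without Cebpg-/- replicate 1 (adjusted p = 0.130), Cebpg-/- replicate 3 (0.130), Cebpg-/- replicate 4 (0.0829), WT replicate 1 (0.133) or WT replicate 2 (0.107). It was also lost after quantile normalization (0.34, adjusted p = 0.0747) and when its 3 probe sets were averaged (0.49, 0.170), with the same direction.

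Eif2ak2 is known as an interferon-stimulated gene, and the mean of 21 such genes was read on the same arrays. That mean was 4.93, 4.37, 4.88 and 4.75 on Cebpg-/- replicates 1 to 4, against 4.05, 4.04, 4.67 and 4.66 on WT replicates 1 to 4. The 3 arrays with the highest interferon mean were also the 3 with the highest Eif2ak2 value, and the 2 with the lowest were the same for both. Of the 21 genes 2 rose and none fell (limma; 5 at an unadjusted p under 0.05), with a median change of 0.37. The 2 make up 9.52% of the list, near the 8.62% of all genes that rose. Over all genes 3.99% fell and 28.4% had an unadjusted p under 0.05. Ifit2, an antiviral protein, read 5.54 to 5.69 in Cebpg-/- and 4.94 to 5.19 in WT (adjusted p = 0.000968). Ifit3, its relative, read 3.44 to 4.35 in Cebpg-/- and 3.15 to 3.40 in WT (adjusted p = 0.0341), and without each array in turn the call was lost for Cebpg-/- replicates 1 (0.0678), 3 (0.0963) and 4 (0.0549) and WT replicates 1 (0.0972), 2 (0.0703) and 3 (0.0706). The Ifit3 change was 0.63, and it was 0.28 with the mean of leukocyte markers described next as a covariate (adjusted p = 0.342), 0.44 without both Cebpg-/- replicate 1 and WT replicate 1 (0.170) and 0.65 with the average of Kdm5d and Uty, both Y-linked, in the fit (0.0504).

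The cultures also differed in leukocyte markers. The mean of 18 markers was 7.72, 5.06, 7.05 and 6.66 on Cebpg-/- replicates 1 to 4, against 3.77, 5.60, 5.52 and 5.68 on WT replicates 1 to 4. All 18 were higher in the Cebpg-/- mean, 13 at an unadjusted p under 0.05 and 1, Cd14, after adjustment (limma). Of all genes 28.4% had an unadjusted p under 0.05 and 8.62% passed as higher. The groups overlapped for each of the 18. These markers were read on the same arrays, so they are not separate tests. Lyz2, lysozyme of myeloid cells, averaged 10.61 in Cebpg-/- and 8.61 in WT. With the marker mean as a covariate the Eif2ak2 change was 0.20 (adjusted p = 0.455). This covariate itself differed between the genotypes, with a mean of 6.62 in Cebpg-/- and 5.14 in WT. In that fit 261 higher and 124 lower genes passed in all, against 1569 and 726 as reported. A call lost there therefore does not show that a change depends on these markers, which was not tested. In bulk RNA, more or fewer cells of a type and more or less RNA per cell cannot be told apart. Of 10 fibroblast markers all lay above the median of all values on every array, from Lum, with values down to 2.80, to Vim and Col1a2. Vim averaged 12.46 in Cebpg-/- and 12.44 in WT, and Col1a2 averaged 12.25 in Cebpg-/- and 12.69 in WT. Col1a1 averaged 9.47 in Cebpg-/- and 10.52 in WT, and Lum, which did not pass, 4.66 in Cebpg-/- and 3.59 in WT. Among 5 endothelial markers Pecam1, Cdh5 and Tek lay below that median on every array, Emcn read 2.02 to 2.82 and Kdr 3.69 to 4.28. Among 4 muscle markers Myod1, Myog and Myf5 lay below it on every array, and Des read 5.09 to 6.12. Of 5 epithelial markers 4 lay above it on every array, with Epcam at 4.03 to 4.64 and Krt18 at 4.28 to 5.34. Of 5 neural markers 2 did so, Tubb3 at 5.24 to 7.05 and Sox10 at 3.87 to 4.29.

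**Figure D2:**
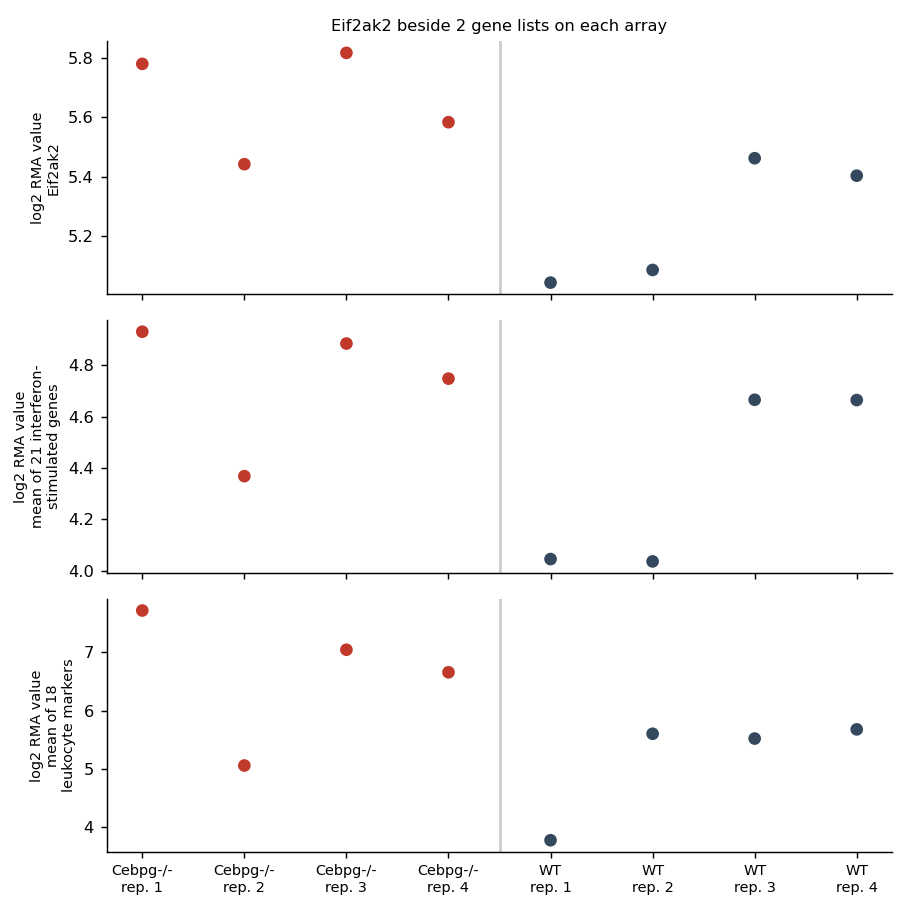
Log2 RMA value of Eif2ak2 (top), mean log2 value of 21 interferon-stimulated genes (middle) and mean of 18 leukocyte markers (bottom) on each array, Cebpg-/- replicates in red and WT replicates in dark blue. WT replicate 1, at 5.04 for Eif2ak2, has the lowest marker mean, 3.77, and Cebpg-/- replicates 1 and 3 have the highest values in all 3 panels.

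The Eif2ak2 promoter is shown for comparison with that of Eif2ak3 (250 bases before the RefSeq start, GRCm38.p6, chr17:78882573-78882822, minus strand). None of the 4 motifs, CCAAT and the interferon response motif included, occurs in this window, and 2.98% of all promoters hold the interferon response motif there.
Eif2ak2: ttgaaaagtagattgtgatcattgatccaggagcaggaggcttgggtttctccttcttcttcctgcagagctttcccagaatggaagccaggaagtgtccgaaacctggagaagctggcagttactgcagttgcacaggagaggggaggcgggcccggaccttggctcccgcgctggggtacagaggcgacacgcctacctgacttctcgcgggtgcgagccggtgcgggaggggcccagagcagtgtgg
Among the members it was found before Eif2s1 alone, a gene with no value here.

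By the rule fixed for the member with the largest change, the 5 genes whose values over the 8 arrays were most like those of Eif2ak2 were Tdrd7, Klhdc8a, Etv5, Sesn3 and Stk10, out of 11090 genes compared. Likeness was the root mean square difference after each gene was centred on its WT mean, and it was 0.07 to 0.09 log2 units for these 5. Tdrd7, the nearest, read 6.16, 5.85, 6.20 and 6.15 on Cebpg-/- replicates 1 to 4, against 5.41, 5.63, 5.92 and 5.85 on WT replicates 1 to 4.

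The amino acid sensor Eif2ak4 (GCN2) was lower in every Cebpg-/- array without passing. It read 5.26, 5.39, 5.46 and 5.47 in Cebpg-/- replicates 1 to 4, against 5.57, 5.51, 5.64 and 5.60 in WT replicates 1 to 4. The log2 difference was -0.18 (95% interval -0.33 to -0.04; limma, adjusted p = 0.0931), and after quantile normalization it was -0.25 and passed (0.0410). A dim second probe set read 1.64 in Cebpg-/- and 1.70 in WT. Cebpg-/- replicate 1, the lowest of the 8 in Eif2ak4, also had the highest leukocyte marker mean, and with that mean as a covariate the difference was -0.16 (adjusted p = 0.406).

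Eif2ak1 (HRI), the haem-regulated kinase, read 4.82, 4.72, 4.85 and 4.76 in Cebpg-/- replicates 1 to 4, against 4.60, 4.67, 4.74 and 4.80 in WT replicates 1 to 4. The groups overlapped, with a difference of 0.09 (95% interval -0.05 to 0.23; limma, adjusted p = 0.400). Changes of its 5 probe sets ran from -0.03 to 0.20 and none passed. A difference beyond 0.23 on the log2 scale lies outside the interval of the brightest set.

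Eif2s2, the beta subunit of eIF2, was the brightest member, and 5 of its 6 probe sets were lower in Cebpg-/-. The brightest read 11.28, 11.36, 11.26 and 11.32 in Cebpg-/- replicates 1 to 4, against 11.38, 11.37, 11.43 and 11.50 in WT replicates 1 to 4. The groups lay apart by a small margin, and the difference was -0.11 (95% interval -0.24 to 0.01; limma, adjusted p = 0.211 over genes). The second brightest read 10.42 to 10.51 in Cebpg-/- and 10.58 to 10.75 in WT, a difference of -0.18 (adjusted p = 0.0959 over probe sets), again without overlap. Over the 6 sets the changes ran from -0.36 to 0.02. In 4 of them the unadjusted p was under 0.05 and none passed after adjustment. The sets share 1 gene and the same arrays, so they are not separate tests of it.

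**Figure D3:**
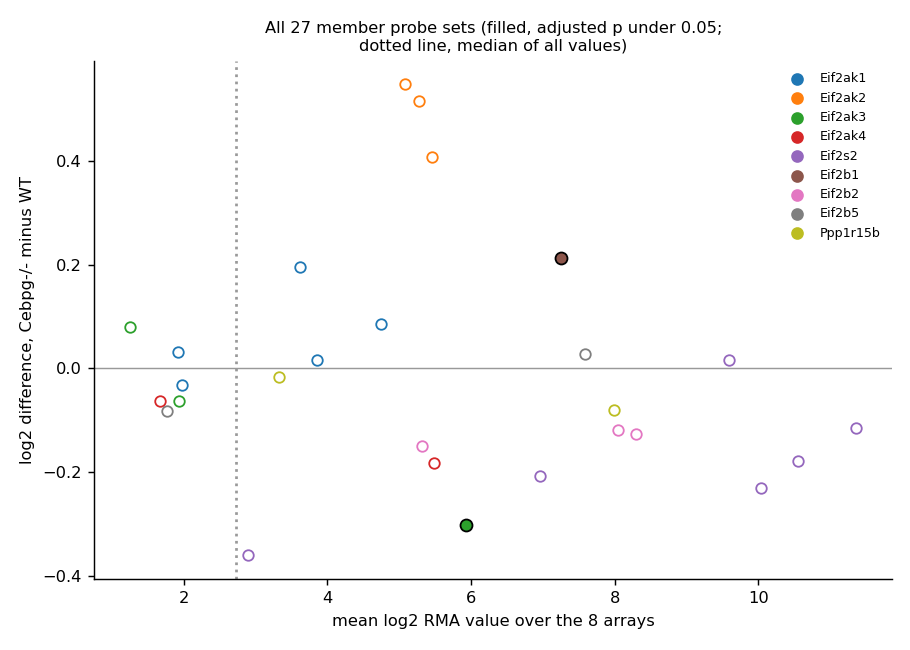
Log2 difference, Cebpg-/- minus WT, of each of the 27 member probe sets against its mean log2 value over the 8 arrays, coloured by gene, with filled points for an adjusted p under 0.05 over all probe sets. The 3 sets of Eif2ak2 lie highest, at 0.41 to 0.55, and the 2 filled points are Eif2b1 at 0.21 and Eif2ak3 at -0.30.

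Of the 3 member subunits of eIF2B, the exchange factor on which phosphorylated eIF2 acts, 1 passed. Eif2b1, the alpha subunit, which belongs to its regulatory part, read 7.37, 7.40, 7.33 and 7.36 in Cebpg-/- replicates 1 to 4, against 7.21, 7.18, 7.15 and 7.07 in WT replicates 1 to 4. All Cebpg-/- values lay above all WT values, and the rise was 0.21 (95% interval 0.09 to 0.34), which puts Cebpg-/- at 116% of WT, with an adjusted p from limma of 0.0326 over genes and 0.0447 over probe sets. The call was near the threshold: without each array in turn the change was 0.18 to 0.23 and the adjusted p was 0.0504 to 0.0824, so no fit without 1 array kept it. It was also lost after quantile normalization (0.18, adjusted p = 0.0878), with the leukocyte marker covariate (0.26, 0.115) and with the average of the Y-linked genes Kdm5d and Uty added to the fit (0.20, 0.0590).

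Eif2b2, the beta subunit, read 8.27, 8.25, 8.16 and 8.25 in Cebpg-/- replicates 1 to 4, against 8.40, 8.43, 8.37 and 8.23 in WT replicates 1 to 4. WT replicate 4 lay among the Cebpg-/- values, and the difference of -0.13 did not pass (95% interval -0.26 to 0.01; limma, adjusted p = 0.216). Its 3 probe sets differed by -0.15 to -0.12, and 2 of them carry the suffix that Affymetrix gives to sets whose probes can match other transcripts.

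Eif2b5, the catalytic epsilon subunit, read 7.58, 7.59, 7.61 and 7.62 in Cebpg-/- replicates 1 to 4, against 7.55, 7.57, 7.61 and 7.56 in WT replicates 1 to 4. The difference was 0.03 with an interval of -0.08 to 0.14 (95%), the smallest change among the members (limma, adjusted p = 0.750). When both of its probe sets were averaged, 1 of them dim, the sign turned (-0.03), again without passing.

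Ppp1r15b (CReP), the constitutive partner that directs protein phosphatase PP1 to eIF2 alpha, read 7.997, 7.91, 7.93 and 7.97 in Cebpg-/- replicates 1 to 4, against 8.02, 7.98, 8.10 and 8.02 in WT replicates 1 to 4. The ranges overlapped, and the difference was -0.08 (95% interval -0.20 to 0.04; limma, adjusted p = 0.361). A second probe set averaged 3.32 in Cebpg-/- and 3.33 in WT.

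Other genes of the eIF2 cycle were taken from a list of 24 partners, all of them measured. Of these 5 rose (Impact, Eif2b3, Denr, Ppp1r15a and Oma1) and none fell, 19 did not pass, and 2 lower and 6 higher genes had an unadjusted p under 0.05 (limma, over genes). The share of the list that passed was 20.8%, against 12.6% of all genes, 8.62% as higher and 3.99% as lower. An unadjusted p under 0.05 was seen for 28.4% of all genes. The list's median change was 0.04 against 0.00 over all genes.

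Impact, an inhibitor of GCN2 that competes for its activator GCN1, showed the largest rise of these genes that passed. It read 8.11, 7.93, 7.94 and 8.04 in Cebpg-/- replicates 1 to 4, against 7.51, 7.23, 7.51 and 7.47 in WT replicates 1 to 4. The groups lay apart, with a change of 0.58, which puts Cebpg-/- at 149% of WT (limma, adjusted p = 0.00227), and it passed without each array in turn (0.00287 to 0.0105). The other probe sets of Impact averaged 3.59 and 1.89 in Cebpg-/-, against 3.58 and 1.82 in WT, and when all 3 sets of Impact were averaged its call was lost (0.22, adjusted p = 0.0580). Gcn1 itself read 5.28 ± 0.07 in Cebpg-/- and 5.35 ± 0.21 in WT (adjusted p = 0.716).

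Eif2b3, the gamma subunit of eIF2B, read 7.61, 7.47, 7.61 and 7.47 in Cebpg-/- replicates 1 to 4, against 7.16, 7.13, 7.15 and 7.17 in WT replicates 1 to 4. The rise of 0.39, to 131% of WT, passed (limma, adjusted p = 0.00336), also without each array in turn (0.00366 to 0.0137), but not with the leukocyte marker covariate (0.34, 0.0540). The delta subunit Eif2b4 read 6.95 ± 0.02 in Cebpg-/- and 6.90 ± 0.07 in WT (adjusted p = 0.559). Among the 5 eIF2B subunits, therefore, the alpha and gamma genes passed as higher and the beta, delta and epsilon genes did not pass. Differences between the subunits' changes were not tested.

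Ppp1r15a (GADD34), the stress-induced counterpart of Ppp1r15b, read 7.50, 7.08, 7.14 and 7.21 in Cebpg-/- replicates 1 to 4, against 6.87, 6.50, 6.80 and 6.97 in WT replicates 1 to 4. The rise was 0.45 (limma, adjusted p = 0.0331). It stayed past the threshold in 2 of the 8 fits without 1 array. It was lost without Cebpg-/- replicates 1 (0.0819), 3 (0.0597) or 4 (0.0723) and without WT replicates 1 (0.0656), 2 (0.0598) or 3 (0.0732), with the leukocyte marker covariate (0.37, 0.277), and without both Cebpg-/- replicate 1 and WT replicate 1 (0.39, 0.137). The PP1 catalytic subunits Ppp1ca, Ppp1cb and Ppp1cc differed by 0.03, -0.07 and 0.07 and did not pass.

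Denr, which acts in reinitiation after short reading frames, averaged 10.04 ± 0.07 in Cebpg-/- and 9.68 ± 0.10 in WT (SD, n = 4 each; limma, adjusted p = 0.00831). Its change was 0.37 as reported and 0.40 with the leukocyte marker covariate, where its call was lost (adjusted p = 0.0584). Its partner Mcts1 averaged 9.06 ± 0.04 in Cebpg-/- and 9.11 ± 0.04 in WT (adjusted p = 0.557). Oma1, the mitochondrial protease known to signal to HRI through DELE1, rose by 0.24 (adjusted p = 0.0475), and in 7 of the 8 fits without 1 array it did not pass, with 0.0488 to 0.128 over all 8. The array without which it still passed was WT replicate 2. The Oma1 call was also lost after quantile normalization (0.17, adjusted p = 0.134), with the Y-linked genes in the fit (0.24, 0.0806), with the leukocyte marker covariate (0.14, 0.429) and without both Cebpg-/- replicate 1 and WT replicate 1 (0.17, 0.257). Dele1 read 4.55 ± 0.05 in Cebpg-/- and 4.62 ± 0.09 in WT (adjusted p = 0.497). Eif5, the GTPase-activating protein of eIF2, was lower in all Cebpg-/- arrays (9.48 to 9.59) than in WT (9.68 to 10.11) and did not pass (-0.30, adjusted p = 0.0559).

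**Figure D4:**
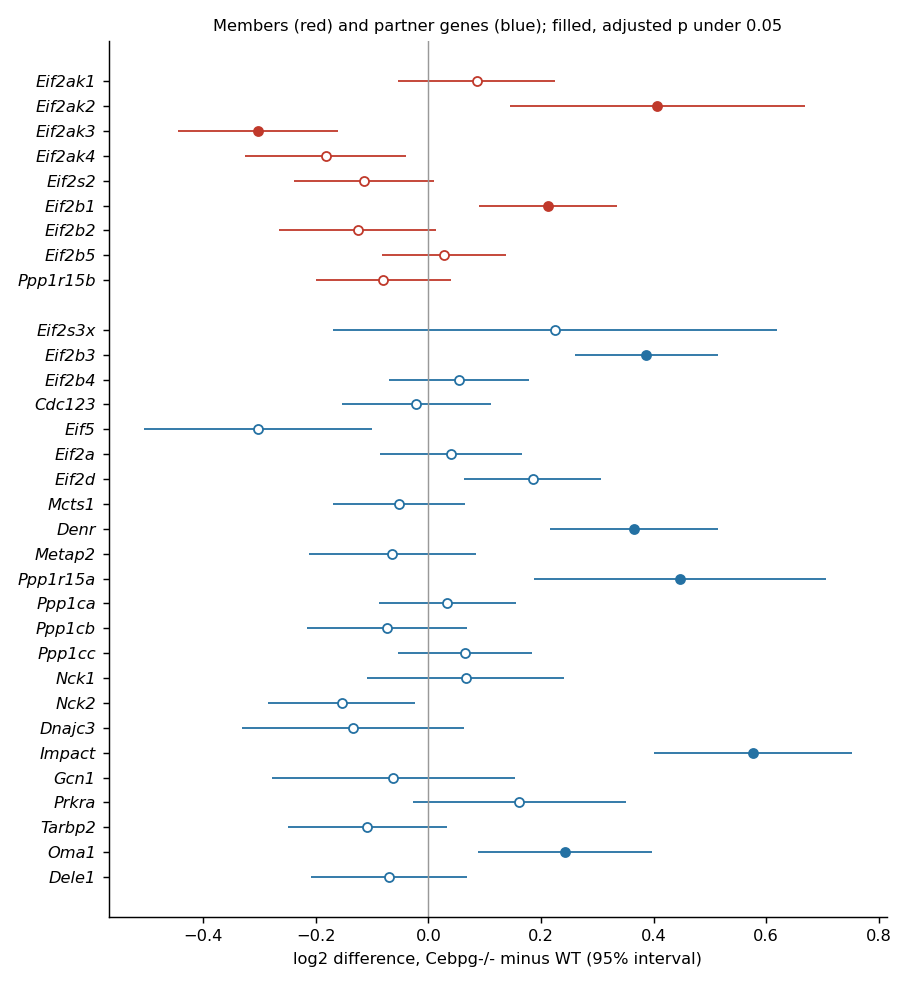
Log2 difference, Cebpg-/- minus WT, with its 95% interval from limma, for the 9 members (red) and 23 partner genes (blue; Eif2s3y is left out for its wide interval), filled where the adjusted p over genes is under 0.05. The filled partner genes, Eif2b3, Denr, Ppp1r15a, Impact and Oma1, all lie right of 0, between 0.24 and 0.58.

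The gamma subunit of eIF2 is encoded on the X chromosome by Eif2s3x, a gene known to escape X inactivation in mice, and on the Y chromosome by Eif2s3y. Eif2s3y read 1.65, 1.82, 6.90 and 6.97 on Cebpg-/- replicates 1 to 4, against 6.26, 1.64, 6.52 and 7.02 on WT replicates 1 to 4. Cebpg-/- replicates 1 and 2 and WT replicate 2 were thus near the bottom of the scale. Eif2s3x read 9.98, 9.83, 9.32 and 9.39 on Cebpg-/- replicates 1 to 4, against 9.52, 9.77, 9.19 and 9.14 on WT replicates 1 to 4, so the same 3 arrays had its 3 highest values. The genotype difference was 0.23 for Eif2s3x (limma, adjusted p = 0.439) and -1.03 for Eif2s3y (0.698). The mean of the Y-linked genes Kdm5d and Uty gave the same 3 low arrays, at 1.25 to 1.45, against 4.10 to 5.13 on the other 5. Arrays with low Y-linked values were thus split unevenly between the genotypes, with Cebpg-/- replicates 1 and 2 but only WT replicate 2. The sex of the cultures was not tested otherwise.

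**Figure D5:**
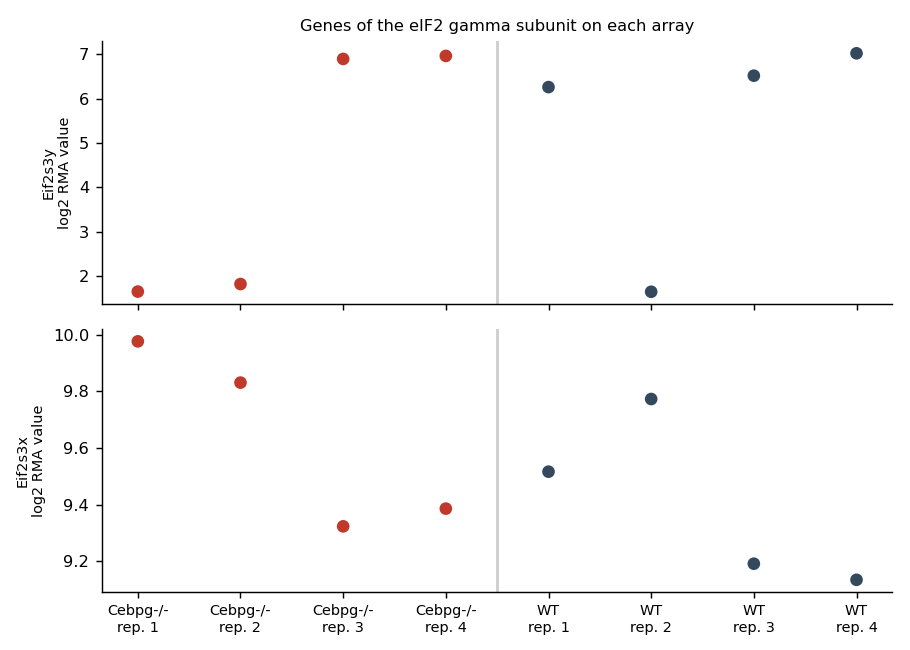
Log2 RMA values of Eif2s3y (top) and Eif2s3x (bottom) on each array, Cebpg-/- replicates in red and WT replicates in dark blue. The 3 arrays at or below 1.82 for Eif2s3y are the 3 highest for Eif2s3x, at 9.77 to 9.98.

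The output of the pathway was counted beside its members. Of 24 measured genes of the list of ATF4 targets and regulators 17 fell, 3 rose and 4 did not pass, and their median difference was -0.73. Of all genes 3.99% fell and 8.62% rose. This list was chosen with earlier results of these data known, so its counts are not an independent result. By their brightest probe sets the 9 members had a median of -0.08 and no change over 0.41 in size. Atf4 itself read 10.18 ± 0.09 in Cebpg-/- and 10.29 ± 0.03 in WT (SD, n = 4 each; limma, adjusted p = 0.246). Its other probe sets were also lower, averaging 8.65 and 1.70 in Cebpg-/- against 8.81 and 1.88 in WT. The groups lay apart in the brighter of them, and neither passed over all probe sets (limma, adjusted p = 0.198 and 0.196). Slc7a3, Cth and Vldlr, an amino acid transporter, an enzyme of cysteine supply and a lipoprotein receptor, had the lowest p values, with changes of -3.79, -3.24 and -1.68. When all probe sets of Vldlr were averaged its change was -1.08 (adjusted p = 2.2e-05). Ppp1r15a, which belongs to both lists, was among the 3 that rose. The others were Atf3 (0.80, limma adjusted p = 0.0255) and Ddit4 (0.33, 0.0393).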

How the data were processed

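RNA of 8 fibroblast samples was hybridised to Affymetrix mouse arrays. The values are log2 expression levels after RMA, deposited by the authors as 1 value per probe set and array, per the submitters' processing notes; the RMA version is not given in the sources used here. They run from 0.53 to 13.10, with array medians of 2.71 to 2.76, and the number of arrays limits the precision. Of 45101 probe sets 64 controls were left out. The platform annotation names 1 gene for 34945 of the rest, several for 932 and none for 9160, and symbols were updated through gene numbers for 34741. The probe set with the highest mean stood for a gene.

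Differences, Cebpg-/- minus WT, were fitted over all 45037 probe sets with limma 3.58.1 (lmFit, eBayes; R 4.3.3) on 8 arrays and adjusted by Benjamini-Hochberg over 18193 genes or over probe sets (threshold 0.05). The fit was tested on simulated data. Dim means not above 2.73, the median of all values, on all 8 arrays. The alternative that left out dim probe sets used a looser rule and kept those above 2.73 on at least 4 arrays. Motifs were matched in RefSeq promoters (GRCm38.p6); the build behind the array files is not given in the sources used here. Alternatives changed the normalization, filter, gene rule, variance model, covariates, threshold and arrays used. The members and lists were chosen with earlier results of these data known. Named were all members, Cebpg, Atf4, every partner gene that passed, the 3 genes with the lowest p among those that passed in each other list, and the 5 nearest to the member with the largest change; other genes, among them Eif2b4, Gcn1, Mcts1, Eif5, Dele1, the PP1 subunits and single cell type markers, were chosen after their values were seen.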

Additional observations from a re-analysis of the deposited data

Results flagged for a closer look

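Outliers were sought in all member probe sets, the partner genes that passed, Eif2s3x, Eif2s3y and the genes with the lowest p named from the other pathway lists. Among these 88 sets of 4 replicates, 6 held 1 array whose gap to its nearest neighbour, over the whole range, exceeded Dixon's critical value at 95%. Chance gives about 1 in 20. For Eif2ak3 it was the dim second probe set, at 1.80 in Cebpg-/- replicate 3 with the other 3 at 1.93 to 1.94. For Eif2s2 it was 9.67 in WT replicate 3 in the probe set that differed by 0.02, and 3.03 in Cebpg-/- replicate 4 in the dim set. For Eif2b2 it was the dimmest of its 3 sets, at 5.21 in WT replicate 4, an array that was also lowest among WT in the other two. Impact stood at 7.23 in WT replicate 2, below 7.47 to 7.51 on the other 3 WT arrays, and the change without that array was 0.51, still past the threshold. Eif2s3y stood at 1.64 in WT replicate 2, against 6.26 to 7.02 on the other WT arrays.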

How the results depend on the processing

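The counts as reported were 2 higher and 1 lower member genes, 1 higher and 1 lower member probe sets, 5 higher and 0 lower partner genes, and 1569 higher and 726 lower genes in all. Quantile normalization gave 0 higher and 2 lower member genes, 0 higher probe sets and 2 lower partner genes. Averaging all probe sets of a gene gave 1 higher and 0 lower member genes. The Y-linked covariate gave 1 higher member gene and 0 higher probe sets. The leukocyte marker covariate gave 0 member genes and 0 probe sets in either direction, 1 higher partner gene, and 261 higher and 124 lower genes in all. That covariate differs between the genotypes, so the lost calls do not show what the changes depend on. Without both Cebpg-/- replicate 1 and WT replicate 1 there were again 0 members and 0 probe sets, 3 higher partner genes, and 347 higher and 182 lower genes in all; fewer samples entered that fit. At a threshold of 0.1 there were 2 lower member genes, 2 higher and 2 lower probe sets, 1 lower partner gene and 1266 lower genes in all. Array medians subtracted, dim probe sets left out, the intensity trend and array weights each gave 2 higher probe sets; the trend gave 2 lower ones, and the last 3 gave 1 lower partner gene. Limma's unadjusted p was under 0.05, where a member count fell to 0, for 1 or 2 genes and 1 to 5 probe sets (the fits without 1 array included), and for 2 lower partner genes as reported. Without 1 array in turn, member genes were 0 to 1 higher and 1 lower, member probe sets 0 to 3 higher and 0 to 2 lower, partner genes 3 to 5 higher and 0 to 1 lower, and all genes 780 to 1690 higher and 395 to 969 lower. Same-numbered arrays of the genotypes share only a number (correlations of deviations -0.27 to 0.13, 0 of 4 best with its own number); with the replicate block there were 1 higher member gene, 0 higher probe sets and 978 higher genes in all. The adjusted p with the block was 0.0852 for Eif2b1, 0.0491 for Eif2ak3, 0.114 for Oma1, 0.0510 for Ifit3 and 0.0795 for Eif3c. Over 432 single-gene values under an alternative, 1 turned its sign (Eif2b5, -0.03), 83 lost a call and 1 gained it (Eif2ak4). The cause was not tested. The Y-linked covariate used 2 of 3 planned genes, since Ddx3y was not analysed here.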

Other observations

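Other translation initiation factors, outside the eIF2 cycle, were examined as a neighbouring group. Of 29 measured genes 2 fell and none rose (limma, over genes; 8 at an unadjusted p under 0.05), with a median change of 0.04. Of all genes 3.99% fell, 8.62% rose and 28.4% had an unadjusted p under 0.05. The groups lay apart for 6 of the 29 on the high side in Cebpg-/- and for 2 on the low side. The shares of all genes were 12.8% and 6.74%. Eif4ebp1, the inhibitor of the cap-binding factor eIF4E and a known ATF4 target, fell by 0.28 (adjusted p = 0.0212), and the call was lost without Cebpg-/- replicate 1 (0.0511), Cebpg-/- replicate 3 (0.0635) or WT replicate 1 (0.0604), without both Cebpg-/- replicate 1 and WT replicate 1 (0.125) and with the leukocyte marker covariate (0.144). Eif3c, a core subunit of eIF3, fell by 0.25 (adjusted p = 0.0357), and the call was lost without Cebpg-/- replicates 1 (0.101), 3 (0.0891) or 4 (0.0618) or WT replicates 1 (0.0776), 2 (0.0779) or 3 (0.0903). It was also lost after quantile normalization (0.0507), with the Y-linked covariate (0.0537), with the leukocyte marker covariate (0.253) and without both Cebpg-/- replicate 1 and WT replicate 1 (0.185).

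Of 10 fibroblast markers 4 fell (Col1a1, Col1a2, Pdgfrb and Postn) and none rose. None of 5 endothelial, 5 erythroid or 4 muscle markers passed (limma; 1, 2 and 1 at an unadjusted p under 0.05). Of 5 epithelial markers Epcam fell, and of 5 neural markers Sox2 rose and Tubb3 fell. Among all genes 3.99% fell, 8.62% rose and 28.4% had an unadjusted p under 0.05.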
